A study of Mus musculus with 4 samples.

Results

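The 8 genes described here encode the Nlrp3 inflammasome, its caspases and related intracellular sensors: Nlrp3, Pycard, Casp1, Casp4, Nlrc4, Aim2, Nod1 and Nod2. They were taken by gene name from the array files, and all 8 were found, on 9 of 41174 probes and among 28511 named genes. The samples were 2 arrays of miR-223 knockout cells and 2 arrays of wild-type cells, all on 1 slide. In both genotypes, marrow of male C57BL/6 mice had been cultured over 4 days with GM-CSF at 40 ng/ml, a growth factor of myeloid cells, and the immature granulocytes that expanded were then sorted. The knockout lacks miR-223, which myeloid cells make in large amounts. The labels give neither the construction of the allele nor the sorting markers, and they do not say that the replicates came from separate animals, so p-values measure only the spread between these samples, which may be technical. The comparison asks whether inflammasome transcripts differ between cells with and without miR-223.

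An inflammasome is a protein platform that assembles in the cytosol when a sensor meets microbial products or signs of damage. The sensor recruits the adaptor encoded by Pycard, which gathers pro-caspase-1, and the active caspase cleaves the precursors of interleukin-1 beta and interleukin-18 and the pore-forming protein gasdermin D. In myeloid cells the amount of Nlrp3 limits this response, and Nlrp3 transcripts are a literature target of miR-223 in mouse and human. Nod1 and Nod2 sense fragments of bacterial cell wall and signal through the kinase Ripk2 to NF-kB, without an inflammasome.

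The Mir223 locus gives both arms of the hairpin, which are shown because the bases in capitals, the seed (bases 2 to 8), select the targets. The sequences are those of RefSeq, build GRCm38.p6, from chromosome X (96242884 to 96242905 for the 3p arm and 96242842 to 96242864 for the 5p arm, plus strand).
mmu-miR-223-3p: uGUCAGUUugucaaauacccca
mmu-miR-223-5p: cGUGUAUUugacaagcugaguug
The DNA letters that pair with these seeds, AACTGAC for the 3p arm and AATACAC for the 5p arm, were searched on the sense strand of the 60-base probes. Of all probes, 0.372% held the first and 0.35% the second, and of the 9 inflammasome probes 0 held either. This says only that the probes do not read these letters. The arrays carried 0 probes named for Mir223, so the knockout itself could not be checked.

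Pycard had a pair of probes and each of the other genes had 1. The Pycard probes are shown because they overlap and so do not read the gene independently. Their 40 shared bases are in capitals, and they lie on chromosome 7, minus strand, at 135136221 to 135136280 and 135136241 to 135136300 (mm9, the build of the array files).
Pycard, brighter probe: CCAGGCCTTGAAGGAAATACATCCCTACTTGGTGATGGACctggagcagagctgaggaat
Pycard, dimmer probe: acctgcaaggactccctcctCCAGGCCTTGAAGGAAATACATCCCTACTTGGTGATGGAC
The Casp1 probe is shown because its 60 bases cover 503 genomic bases on chromosome 9 (5306226 to 5306728, plus strand), so that it reads spliced RNA.
Casp1: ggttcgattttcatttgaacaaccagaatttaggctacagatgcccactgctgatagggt
The other probes lie on chromosome 11 for Nlrp3 (59378554 to 59378613), chromosome 9 for Casp4 (5336645 to 5336704), chromosome 17 for Nlrc4 (74826172 to 74826231), chromosome 1 for Aim2 (175395269 to 175395328), chromosome 6 for Nod1 (54874007 to 54874066) and chromosome 8 for Nod2 (91212170 to 91212224). The array files give no exon or UTR for them. The place given for the Nod2 probe spans 55 genomic bases, fewer than the 60 of the probe. Of the 9 probes, 8 shared no stretch of 15 bases with a probe of another gene name on either strand, and the brighter Pycard probe shared one with 1 other probe. Over all probes, 68.9% shared none.

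Levels are log2 of the processed intensity after subtraction of the 75th percentile of each array, so that 0 is that percentile, and differences are knockout minus wild type. They come from limma over 16778 genes, each by its brightest probe, with Benjamini-Hochberg adjustment over all of them, and an error after ± is limma's moderated standard error (SE, n = 2 arrays per group) unless given as SD. Levels of different probes are not set against each other. Between 57.6% and 63.5% of probes were well above background on each array, and 0 spots were saturated. Precision is limited by having 2 arrays per group, and the median SE of a difference was 0.157. Of all tested genes, 0 passed an adjusted p of 0.05 as higher (0%) and 0 as lower in the knockout (0%), and 2275 (13.6%) had an unadjusted p under 0.05 (limma).

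Nlrp3, the sensor of the Nlrp3 inflammasome and a literature target of miR-223, did not differ beyond the spread between replicates. Its processed intensity was 94.2 and 138 on the knockout arrays, against 86.1 and 137 on the wild-type arrays. The scanner software's own error of these spots was 9.57 and 13.8 in the knockout and 8.74 and 14.0 in wild type. In both genotypes array 1 was the dim one and array 2 the bright one, and the genotypes overlapped. The levels were -2.45 and -1.84 in the knockout, against -2.77 and -1.83 in wild type. The difference was 0.15 ± 0.39, or 1.11-fold, with a 95% interval from 0.534-fold to 2.31-fold (limma adjusted p = 0.892). Arrays of 1 genotype were thus 0.61 apart in the knockout and 0.94 apart in wild type, more than the genotypes were. Of all tested genes, 6.87% had a knockout gap and 5.08% a wild-type gap at least as wide. The sign of the difference rested on single arrays: it was -0.32 without wild type replicate 1 and -0.15 without miR-223 knockout replicate 2, against 0.62 without wild type replicate 2 and 0.46 without miR-223 knockout replicate 1.

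Pycard encodes the adaptor, often called ASC, that joins sensors to pro-caspase-1. Its brighter probe was at 5.87 and 5.90 in the knockout, against 5.78 and 6.01 in wild type. The knockout arrays lay between the wild-type arrays. The difference was -0.0084 ± 0.14, with a 95% interval from 0.765-fold to 1.29-fold (limma adjusted p = 0.984). The dimmer probe was at 5.58 and 5.47 in the knockout, against 5.29 and 5.78 in wild type, with a difference of -0.0069 (SE 0.21 in a fit over all probes), and its knockout arrays also lay between those of wild type.

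The inflammatory caspases were measured as closely. Casp1, the protease that matures interleukin-1 beta and interleukin-18, was at 2.96 and 2.87 in the knockout, against 2.87 and 2.82 in wild type. The groups overlapped by a narrow margin, and all 4 arrays fell within 0.13 of each other, the tightest of the 7 tested genes. The difference was 0.065 ± 0.12, with a 95% interval from 0.834-fold to 1.31-fold (limma adjusted p = 0.843). Casp4, the mouse gene of caspase-11, which senses cytosolic lipopolysaccharide, was at 3.72 and 3.67 in the knockout, against 3.53 and 3.86 in wild type. Here too the knockout arrays lay between the wild-type arrays. The difference was -0.0019 ± 0.16, with a 95% interval from 0.737-fold to 1.35-fold (limma adjusted p = 0.997).

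**Figure D1:**
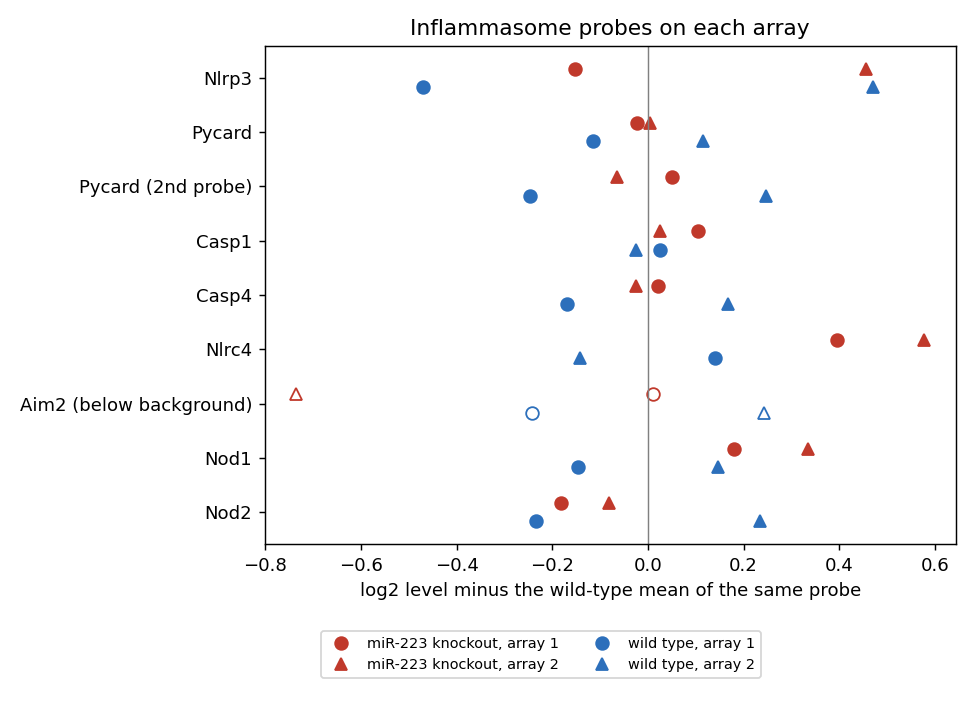
Log2 level of each inflammasome probe on each array, minus the wild-type mean of that probe, for 2 miR-223 knockout arrays (red, upper mark of each row) and 2 wild-type arrays (blue, lower mark); circles are array 1, triangles array 2, open marks a probe not well above background. Nlrp3 follows the array number in both genotypes, while Nlrc4 and Nod1 have each knockout array to the right of each wild-type array.

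Nlrc4 encodes the sensor that, with the Naip proteins, detects bacterial flagellin and secretion needles. It had the largest difference of the 7 tested genes. Its intensity was 980 and 1066 on the knockout arrays, against 935 and 639 on the wild-type arrays. The levels were 0.93 and 1.11 in the knockout, against 0.68 and 0.39 in wild type, and the genotypes did not overlap. The difference was 0.49 ± 0.16, or 1.40-fold, with a 95% interval from 1.04-fold to 1.90-fold. Before adjustment the limma p was 0.0358, and after adjustment over all genes it was 0.339, so that the difference did not pass. Of all tested genes, 16.1% had a larger absolute difference. The sign was kept in each of 13 other settings, and the difference ran from 0.35 to 0.63. Many of these settings could not have turned it. Leaving out an array could not, because the genotypes did not overlap. Changing the filter or probe choice, or blocking on the replicate number, left the difference at 0.49.

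Nod1, the sensor of cell wall peptides typical of Gram-negative bacteria, was at 4.59 and 4.74 in the knockout, against 4.26 and 4.55 in wild type. The genotypes did not overlap, though knockout array 1 was above the nearer wild-type array by a margin that was small beside the gap within wild type. The difference was 0.26 ± 0.16, or 1.20-fold, with a 95% interval from 0.885-fold to 1.61-fold (limma adjusted p = 0.544). Nod2, the sensor of muramyl dipeptide, was at -1.11 and -1.01 in the knockout, against -1.16 and -0.69 in wild type, and the groups overlapped. The difference was -0.13 ± 0.20, with a 95% interval from 0.631-fold to 1.32-fold (limma adjusted p = 0.8). Without wild type replicate 2 it was 0.10 and so changed sign.

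Aim2, the sensor of cytosolic DNA, was well above background on 0 of 4 arrays. Its processed intensity was 2.28 and 1.31 in the knockout, against 2.18 and 2.53 in wild type, where the dimmest probe well above background stood at 6.54 and 5.44 in the knockout and at 6.03 and 11.6 in wild type. It was not tested, and no fold is given. Its probe had 20.0% G and C, against a median of 40.0%, and 0.84% of probes, itself included, had as little or less. Of these 346 probes, 16.2% were well above background on 1 array or more, against 67.6% of all probes. How far base composition sets the reading of Aim2 was not tested.

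As a group the inflammasome genes gave no call. Of the 7 tested, 4 had a higher and 3 a lower mean in the knockout, with a median difference of 0.065, against 0.032 over all tested genes, and 0 passed an adjusted p of 0.05 (limma; 1, Nlrc4, had an unadjusted p under 0.05). Without overlap between genotypes, the knockout was above wild type for 2 of 7 (28.6%) and below it for 0 of 7. Over all tested genes the shares were 28.0% above and 20.1% below, 48.1% in either direction. The 7 genes were thus not more often apart than genes at large. In 6 of 7 the wild-type arrays were further apart than the knockout arrays, as they were in 60.7% of all genes. For 5 of the 7, wild type replicate 2 was above replicate 1, the exceptions being Casp1 and Nlrc4.

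**Figure D2:**
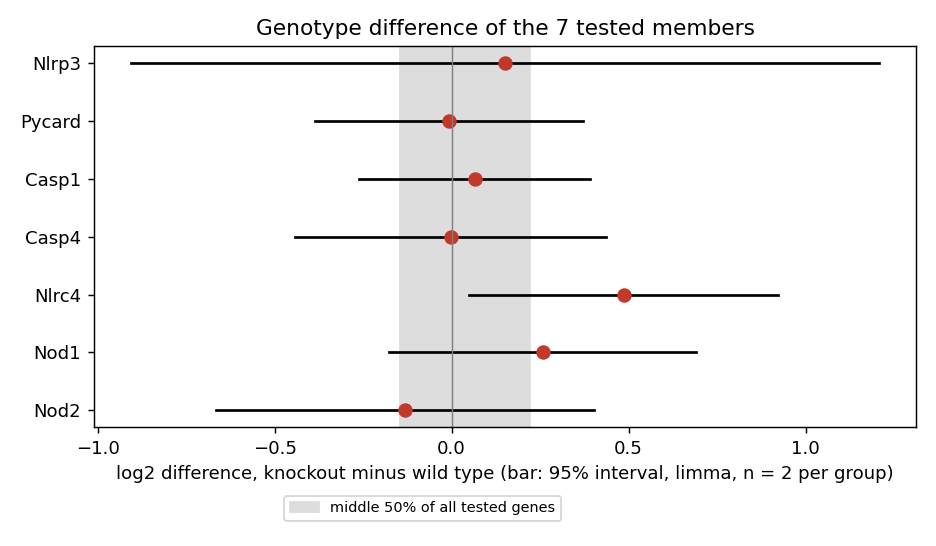
Log2 difference (knockout minus wild type) of the 7 tested inflammasome genes, with the 95% interval from limma (n = 2 arrays per group); the grey band holds the middle 50% of all 16778 tested genes, from -0.14 to 0.22. The interval of Nlrp3 is the widest, from -0.91 to 1.21, and that of Nlrc4, from 0.050 to 0.92, is the 1 interval that leaves out 0, before adjustment.

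The intervals of single genes were wide for Nlrp3 and narrower for its partners. For Pycard, Casp1 and Casp4 the upper bounds were between 1.29-fold and 1.35-fold and the lower bounds between 0.737-fold and 0.834-fold. A p that misses the threshold does not show that the genotypes are alike, and these bounds give the size that the arrays leave possible for each gene taken alone.

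The rest of the pathway was described by 6 lists of genes. From each list up to 4 genes were named by a rule that took only genes without overlap between genotypes, smallest limma p first. Their lack of overlap was thus fixed by the choice and is not a result. No list gene passed over all genes by limma. Over the 6 lists, some of which share genes, 13 of 82 tests (15.9%) had an unadjusted limma p under 0.05, near the 13.6% of all genes. Among other inflammasome sensors and related receptors, 15 of 17 genes on the array were tested, 9 were higher and 6 lower in the knockout, and the median difference was 0.24, against 0.032 over all genes. Knockout and wild-type arrays did not overlap for 9 of 15, against 48.1% of all genes. Mefv, which encodes the sensor pyrin, was at 3.09 and 3.35 in the knockout, against 2.46 and 2.36 in wild type. Its difference of 0.81 ± 0.15 (1.75-fold) did not pass (limma adjusted p = 0.25). Naip5, the flagellin receptor that joins Nlrc4, was at 1.90 and 2.18 in the knockout, against 1.36 and 1.64 in wild type, with a difference of 0.54 ± 0.18 (limma adjusted p = 0.337). Naip5 belongs to a family of close copies that probes may not tell apart. Naip2, the receptor of the secretion rod in mouse, overlapped between genotypes, with a difference of 0.26 ± 0.20. Zbp1, a sensor of Z-form nucleic acid, had a difference of 0.44 ± 0.14 and Nlrp2 one of 0.48 ± 0.18. The sensors Nlrp6 and Naip1 were well above background on 0 of 4 arrays.

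What the caspases act on went in both directions. Il18, the precursor of interleukin-18, was at -4.22 and -4.40 in the knockout, against -3.11 and -2.66 in wild type. Both knockout arrays were lower by more than the gap within either genotype, and the difference was -1.43 ± 0.20, or 0.371-fold (limma adjusted p = 0.239). With normexp background correction it was -0.62. Il1b, the precursor of interleukin-1 beta, was at 0.73 and 1.78 in the knockout, against 0.97 and 1.48 in wild type. The genotypes overlapped, and the difference was 0.027 ± 0.41 (limma adjusted p = 0.983), with array 1 the dimmer of each pair, as for Nlrp3. Il1a was at -3.71 and -3.11 in the knockout, against -3.34 and -1.36 in wild type (difference -1.06 ± 0.71; another probe -0.96). The value rested on 1 array: it was -0.073 without wild type replicate 2 and -2.06 without wild type replicate 1, and with normexp it was -0.58. Il1rn, the receptor antagonist that blocks interleukin-1, was at 3.48 and 4.17 in the knockout, against 2.55 and 3.44 in wild type (difference 0.83 ± 0.40; another probe 0.92). The genotypes did not overlap, but arrays of 1 genotype were further apart than the nearest arrays of the 2 genotypes, and the difference was 0.38 without wild type replicate 1, 0.49 without miR-223 knockout replicate 2 and 1.27 without wild type replicate 2.

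Genes of membrane rupture and alarm release had smaller differences than Il18. Gsdmd, whose product opens the membrane after cleavage by caspase-1 or caspase-11, was at 3.38 on each knockout array, against 3.56 and 3.42 in wild type. Its difference was -0.10 ± 0.13 (limma adjusted p = 0.755), and the genotypes did not overlap. Gsdme, another gasdermin gene, had a difference of 0.13 ± 0.12, Ninj1, which ruptures the membrane of dying cells, one of 0.33 ± 0.15, and the nuclear alarm protein gene Hmgb1 one of -0.16 ± 0.13 (other probes -0.13 to 0.04). In this list 6 of 10 genes were higher and 4 lower, with a median of 0.026, and 8 of 10 did not overlap between genotypes, against 48.1% of all genes.

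Among 17 activators and brakes of Nlrp3, 11 were higher and 6 lower, with a median of 0.043. The genotypes did not overlap for 9 of 17 (52.9%), 7 above and 2 below, against 48.1% of all genes. P2rx7, the ATP-gated channel that triggers Nlrp3 through potassium loss, was at -0.37 and -0.55 in the knockout, against 0.27 and 0.51 in wild type. The knockout arrays were the lower ones, without overlap, and the difference was -0.85 ± 0.16, or 0.553-fold (limma adjusted p = 0.25; another probe -1.40). The other genes of this list named by the rule, which takes only genes without overlap, were higher in the knockout. Trpm2, an oxidant-gated calcium channel, had a difference of 0.95 ± 0.35 (0.51 without wild type replicate 1). Card6, a CARD protein, had one of 0.67 ± 0.16, and Panx1, a channel that releases ATP, one of 0.46 ± 0.17 (another probe 0.57). Nek7, the kinase that Nlrp3 needs for assembly, was at 2.64 and 2.74 in the knockout, against 2.57 and 2.56 in wild type. Its difference was 0.12 ± 0.12 (limma adjusted p = 0.693).

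Nod1 and Nod2 signalling held 20 tested genes, 12 higher and 8 lower, with a median of 0.073. Of these 20, 9 (45%) did not overlap between genotypes, against 48.1% of all genes. Slc15a4, an endolysosomal peptide transporter that carries Nod ligands, was at 3.26 and 3.44 in the knockout, against 2.68 and 2.80 in wild type (difference 0.61 ± 0.14; limma adjusted p = 0.263). Slc46a3, another such carrier, had a difference of 0.51 ± 0.13, Map3k7, the kinase TAK1, one of 0.26 ± 0.14, and Ikbkg, the regulatory subunit of the IKK complex, one of 0.25 ± 0.13, though other Ikbkg probes gave -0.27 to 0.36. Ripk2, the kinase next to Nod1 and Nod2, overlapped between genotypes, with a difference of 0.16 ± 0.15. The list's largest value, 2.75 ± 2.1 for the transporter gene Slc15a2, came from 1 wild-type array at -8.59, where it was not well above background, beside the other at -2.45.

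Of 6 tested caspases outside the inflammatory group, 5 were higher and 1 lower, with a median of 0.026. Genotypes did not overlap for 3 of 6 (50%), against 48.1% of all genes. Casp9, the initiator of the mitochondrial route of apoptosis, differed by 0.16 ± 0.12. Casp12, which neighbours Casp1 and Casp4 on chromosome 9, and Casp14 were well above background on 0 of 4 arrays. Among 14 tested genes of the guanylate-binding protein and caspase-11 route, 9 were higher and 5 lower, with a median of 0.051. In this list 6 of 14 (42.9%) did not overlap between genotypes. Gbp3 had a difference of -0.58 ± 0.21, Ifnar2, a chain of the interferon receptor, 0.34 ± 0.16 (another probe 0.28) and the GTPase gene Igtp 0.21 ± 0.13. Tlr4, the surface sensor of lipopolysaccharide, was at 0.40 and 0.43 in the knockout, against 0.44 and 0.47 in wild type (difference -0.042 ± 0.12).

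**Figure D3:**
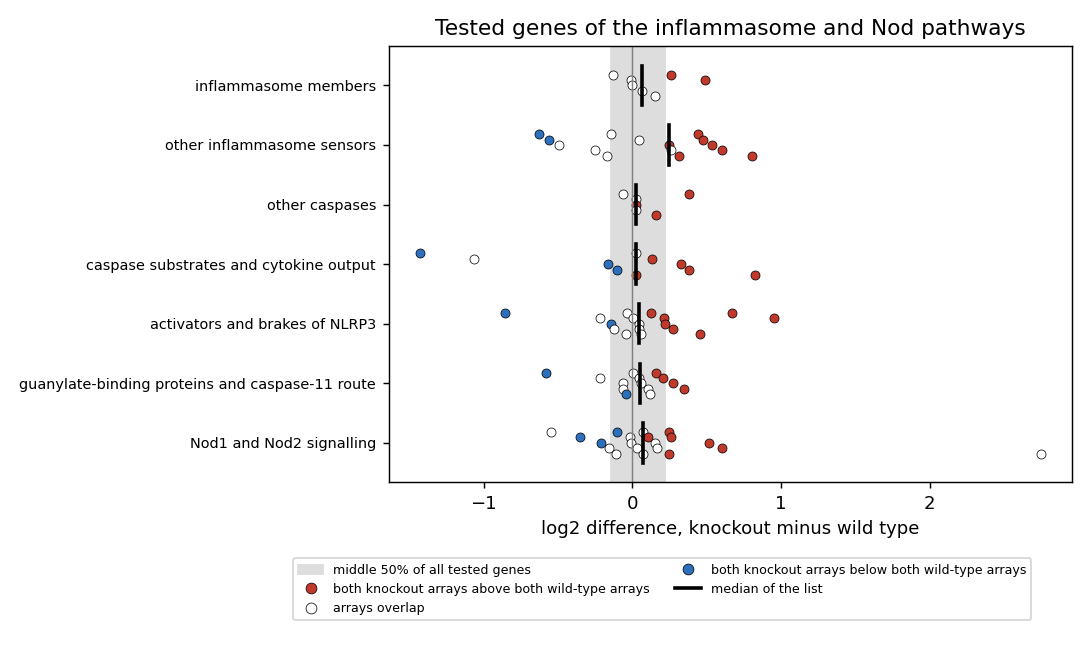
Log2 difference (knockout minus wild type) of each tested gene of the inflammasome group and of 6 other lists, 1 point per gene; red points have the knockout above wild type and blue points below it, without overlap, white points overlap, the bar is the median of the list and the grey band the middle 50% of all tested genes. The medians run from 0.026 to 0.24, and Il18 (-1.43) and P2rx7 (-0.85) are the lowest points among genes whose arrays do not overlap.

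No marker gene of any cell type passed an adjusted p of 0.05 (limma). The tested markers of macrophages and monocytes, of dendritic cells, and of mast cells and basophils were mostly at lower values in the knockout. Their part in the differences above was not tested. Fewer cells of a type and less RNA per cell cannot be told apart in bulk samples. All 13 neutrophil granulocyte markers on the array, Elane, Mpo, Ltf, Camp and S100a8 among them, were well above background on all 4 arrays. Their median difference was 0.15, with 11 of 13 higher, and their summed level, in multiples of the 75th percentile of an array, was 4144 and 4593 in the knockout and 3786 and 4013 in wild type. Of 18 tested macrophage and monocyte markers, 15 were lower, with a median of -1.01, beside the values of Il18 and P2rx7. Clec4f and Timd4 of that list were well above background on 0 arrays. The summed level of its 20 genes was 846 and 942 in the knockout and 737 and 920 in wild type, most of it from Lyz2, which granulocytes also express. Dendritic cell markers were lower in 9 of 11, with a median of -0.44 and summed levels of 174 and 117 in the knockout and 167 and 179 in wild type. Mast cell and basophil markers were lower in 7 of 8 tested, with a median of -1.30 and summed levels of 28.0 and 19.7 in the knockout and 37.4 and 43.8 in wild type, and Cma1, Mcpt4, Tpsab1 and Tpsb2 were well above background on 0 arrays. The summed eosinophil level was 20.3 and 26.6 in the knockout and 11.9 and 60.9 in wild type. Wild type replicate 1, on which Nlrp3 was dimmest, also had the lowest neutrophil, macrophage and eosinophil sums. The dendritic, mast cell and basophil, B cell, T and NK cell, erythroid and megakaryocyte sums were not lowest on that array. The erythroid sum was highest there. Whether these sums bear on Nlrp3 was not tested.

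The genes most like Nlrp3 over the 4 arrays, by the Euclidean distance between log2 profiles each centred on its own mean, were Tex26 (0.11), Lrrc6 (0.13) and Ocm (0.15), among 12177 tested genes with a RefSeq name. Tex26 was at -5.78 and -5.14 in the knockout, against -5.97 and -5.03 in wild type. With 4 arrays this likeness is a description only.

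**Figure D4:**
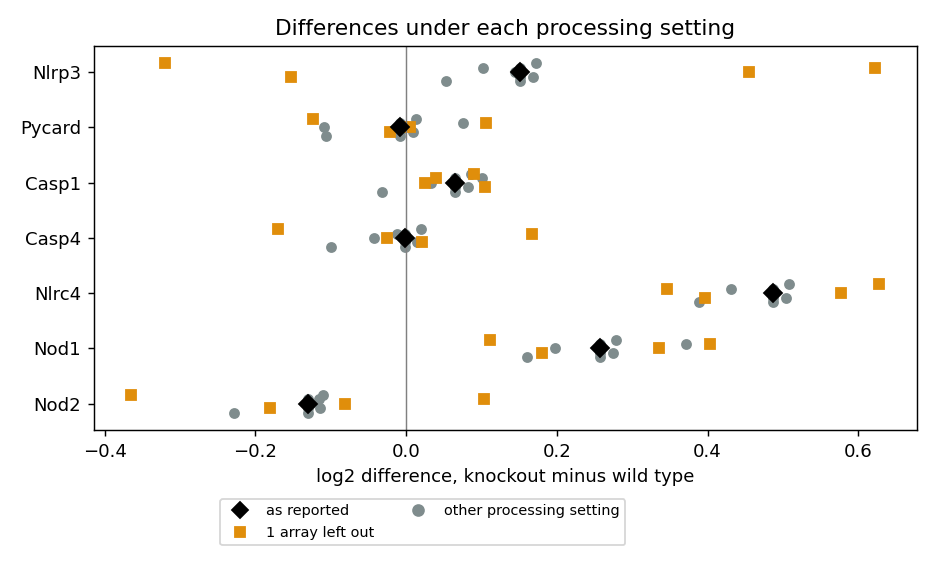
Log2 difference (knockout minus wild type) of the 7 tested inflammasome genes as reported (black), with 1 array left out (orange) and under 9 other settings (grey). Nlrc4 and Nod1 stay above 0 throughout, from 0.35 to 0.63 and from 0.11 to 0.40. Their genotypes do not overlap, so leaving out 1 array could not turn their sign. Nlrp3 runs from -0.32 to 0.62 with single arrays left out.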

How the data were processed

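Per the labels' protocols, Cy3-labelled complementary RNA was made from total RNA for a single-colour design. Per the file headers, the deposited intensity values were made with Agilent Feature Extraction 10.5.1.1, which removed background and spatial trends and gave dim spots surrogate values, with no scaling between arrays. The authors' deposited log2 values matched the log2 intensity plus 1 constant per array, within 0.01 for at least 99.8% of probes, with column medians of 5.03; how they were made is not given in the sources used here. They served as an alternative.

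Control spots and outlier spots were left out, log2 values of a probe's spots averaged, and the 75th percentile of each array subtracted (an intensity of 514 and 493 in the knockout, 586 and 486 in wild type). Accessions were matched to RefSeq (GRCm38.p6) for 26998 of 41174 probes, the others keeping the array's name. The brightest probe stood for its gene, and testing required it to be well above background on each array of 1 genotype or more. The two-sided test was limma 3.58.1 in R 4.3.3. The fit was also run on data simulated under its own assumptions, with independent arrays, so that run does not test those assumptions. Named genes were all 8 inflammasome genes, all caspase substrates and cytokines, and from each list up to 4 non-overlapping genes of smallest p; Naip2, Nek7, Ripk2, Slc15a2, Tlr4, Nlrp6, Naip1, Casp12 and Casp14 were added after their values were seen. Some genes that the rule names are not reported here. The 8 genes and the lists were chosen with earlier results of these data known. Alternatives were other background correction, scaling, filter, probe choice, the replicate block and each array left out.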

Additional observations from a re-analysis of the deposited data

How the results depend on the processing

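None of the 7 inflammasome genes or of the list genes named by rule passed an adjusted p of 0.05 (limma) under any of 13 alternatives. The count over all genes was 0 as reported, 5 with normexp background correction and 4 with spike-in scaling, which moved the median of all genes to -0.066, against 0.032 as reported; it was 0 in the other alternatives, each single array left out included. Signs turned where differences were near 0. Pycard was at 0.075 with normexp, 0.0085 with median scaling and 0.013 with the authors' deposited log2 values, Casp4 at 0.015 with median scaling and 0.019 with the authors' values, and with spike-in scaling Casp1 was at -0.033 and Il1b at -0.071. With each array left out in turn, the difference ran from -0.32 to 0.62 for Nlrp3, from -0.12 to 0.11 for Pycard, from -0.17 to 0.17 for Casp4, from -0.36 to 0.10 for Nod2 and from -0.50 to 0.55 for Il1b. Nlrc4 and Nod1 kept their sign in all 13, but many of these could not have turned it. Their genotypes did not overlap, so leaving out an array could not. The alternatives of filter, probe choice and replicate block left both differences unchanged. The genotypes share replicate numbers, but nothing in the labels makes them pairs. The deviations of same-numbered arrays correlated at 0.17 over genes, a value that cannot decide whether they are pairs. With the replicate number as a block 0 genes passed, no call changed, and Nlrp3 kept 0.15 with an SE of 0.16 in place of 0.39 (limma adjusted p = 0.685; 0.442 to 0.99 over its alternatives). The differences of Il18 and Il1a were smaller with normexp background correction, -0.62 and -0.58, against -1.43 and -1.06 as reported. Dim signal limits Aim2, and 2 arrays per group limit every difference.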
